A study of Homo sapiens with 8 samples.

Results

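The genes described here are 9 genes that mark a neuron's transmitter, namely those that load GABA, glutamate or acetylcholine into synaptic vesicles and those that make or import the transmitter. They are SLC32A1, GAD1 and GAD2 for GABA, SLC17A6, SLC17A7 and SLC17A8 for glutamate, and SLC18A3, CHAT and SLC5A7 for acetylcholine. All 9 had a probe, and their 14 probes are a small part of the 47322 probes measured. SLC32A1 was chosen by the measured effect of TRPM7 shRNA on it in SH-SY5Y cells, so that this effect and anything computed from it is a description with no test. The other 8 genes were listed for their function, with earlier results of these data known, to see whether they moved with it. The arrays measured total RNA of 2 human neuroblastoma lines, SH-SY5Y (neuroblastic) and SH-EP2 (epithelial-like), in 4 groups of 2 arrays each. Each line had been stably transduced by lentivirus with a scrambled shRNA, called control here, or with an shRNA against the cation channel kinase TRPM7, and all 4 groups therefore carried a lentiviral shRNA. One TRPM7 shRNA was used, and whether a group's 2 arrays come from different cultures is not stated, so that p-values measure only the spread between these arrays.

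A neuron's transmitter is set by a few genes. GABA is made from glutamate by the decarboxylases GAD1 and GAD2 and is loaded into vesicles by the vesicular inhibitory amino acid transporter SLC32A1, which also loads glycine. Glutamate needs no dedicated enzyme and is loaded by the vesicular transporters SLC17A6, SLC17A7 or SLC17A8. Acetylcholine is made by choline acetyltransferase, CHAT, from choline that SLC5A7 imports, and SLC18A3 loads it. Sympathetic neuroblasts, from which neuroblastoma arises, mostly make noradrenaline, and some sympathetic neurons are cholinergic.

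The 250 bases before the start of 4 of these genes are shown because these are the genes that the results turn on (SLC32A1, GAD1 and SLC18A3) and the paralogue that stayed at background (GAD2). They are RefSeq sequences of GRCh38.p14, all on the plus strand, at chr20:38724236-38724485 for SLC32A1, chr2:170816637-170816886 for GAD1, chr10:49610060-49610309 for SLC18A3 and chr10:26216122-26216371 for GAD2, which has a further start. Capitals mark the motifs that were searched on both strands.
SLC32A1: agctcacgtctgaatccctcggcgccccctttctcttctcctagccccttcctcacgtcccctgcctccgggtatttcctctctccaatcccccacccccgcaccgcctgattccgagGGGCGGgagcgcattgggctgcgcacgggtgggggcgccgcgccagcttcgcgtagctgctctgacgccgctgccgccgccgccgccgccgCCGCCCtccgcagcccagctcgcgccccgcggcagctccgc
GAD1: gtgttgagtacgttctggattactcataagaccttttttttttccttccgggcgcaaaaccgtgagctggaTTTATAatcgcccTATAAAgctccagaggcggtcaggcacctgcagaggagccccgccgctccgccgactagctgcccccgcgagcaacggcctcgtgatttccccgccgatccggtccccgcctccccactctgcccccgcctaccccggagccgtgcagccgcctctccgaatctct
SLC18A3: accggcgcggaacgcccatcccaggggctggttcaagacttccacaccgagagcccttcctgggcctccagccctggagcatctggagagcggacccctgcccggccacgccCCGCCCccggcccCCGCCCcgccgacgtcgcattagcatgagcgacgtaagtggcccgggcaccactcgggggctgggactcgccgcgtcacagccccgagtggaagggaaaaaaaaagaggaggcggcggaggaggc
GAD2: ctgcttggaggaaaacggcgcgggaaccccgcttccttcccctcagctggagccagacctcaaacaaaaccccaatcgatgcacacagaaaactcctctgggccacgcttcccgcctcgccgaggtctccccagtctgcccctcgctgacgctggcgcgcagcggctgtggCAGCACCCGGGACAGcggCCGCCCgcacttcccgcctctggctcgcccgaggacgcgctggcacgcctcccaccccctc
The motifs were the TATA box (TATAAA), the GC box (GGGCGG), a homeodomain site of the DLX type (TAATTA) and the core of the RE1 element bound by the repressor REST (CAGCACC and GGACAG with 2 bases of any kind between them). GAD1 held 2 TATA box matches, which began 179 and 166 bases before the start, and no GC box. SLC32A1 and SLC18A3 each held 2 GC boxes and no TATA box. The RE1 core was found in the promoter of GAD2 and in no other of the 12 promoters of the 9 genes, and the DLX-type site in none of them. Among all 35116 promoters of this length, 10.7% held a TATA box, 42.6% a GC box, 4.35% the DLX-type site and 0.0456% the RE1 core. A match is a description of the letters in these windows.

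Signals are given as deposited or as normalized signals on a log2 scale, and a probe is called detected on an array where its detection p, which sets it against the negative control beads, is under 0.05. Between 40.8% and 44.2% of all probes were detected on an array, and median deposited signals ranged from 104.7 to 119.9. The TRPM7 probe was detected on none of the 8 arrays, so that the knockdown cannot be checked here. GAPDH differed by -0.04 in SH-SY5Y and by 0.05 in SH-EP2 cells after TRPM7 shRNA (log2). At an adjusted p under 0.05 (limma), 26.2% of all probes differed between the control cells of the lines, in either direction. At that threshold, of 8 noradrenergic markers, 7 were higher in SH-SY5Y than in SH-EP2 control cells and none was lower. TH, the enzyme that starts noradrenaline synthesis, was the other one and was undetected in both control groups. Of 8 mesenchymal markers, 7 were lower in SH-SY5Y control cells and 1, VIM, was higher by its brightest probe. That VIM difference was 1.14-fold (limma adjusted p = 0.0356), and the second VIM probe did not pass (adjusted p = 0.313). Of 8 markers of Schwann cells, leukocytes and endothelium, 1 was detected on each SH-SY5Y array and 3 or 4 on each SH-EP2 array, and their summed level was 5.44 to 5.70 on control and 5.68 to 6.05 on TRPM7 shRNA arrays of SH-SY5Y cells (log2). Their part in the results was not tested. In whole cultures, fewer cells that use a gene and less RNA of it per cell cannot be told apart.

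SLC32A1 went from the edge of detection to a clear signal in SH-SY5Y TRPM7 shRNA cells. Its deposited signals (ILMN_1697512) were 116.3 and 95.1 on the control arrays, of which the first was detected, and 217.7 and 219.6 on the TRPM7 shRNA arrays. The groups did not overlap, and the TRPM7 shRNA arrays lay close together. The normalized signal was 2.47 ± 0.95 in control and 6.51 ± 0.11 in TRPM7 shRNA cells (log2, SD, n = 2), a difference of 4.04 (SE 0.52), or 16.4-fold. With the undetected control array set to the lowest signal detected on it, the difference was 3.32, or 10-fold. The ratio of the mean deposited signals, from which no background was taken, was 2.07. In SH-EP2 cells the probe was undetected on all 4 arrays, with signals of 110.4 and 104 in control and 114.4 and 102.3 in TRPM7 shRNA cells. The signal in SH-EP2 cells therefore did not leave the background in either group.

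**Figure D1:**
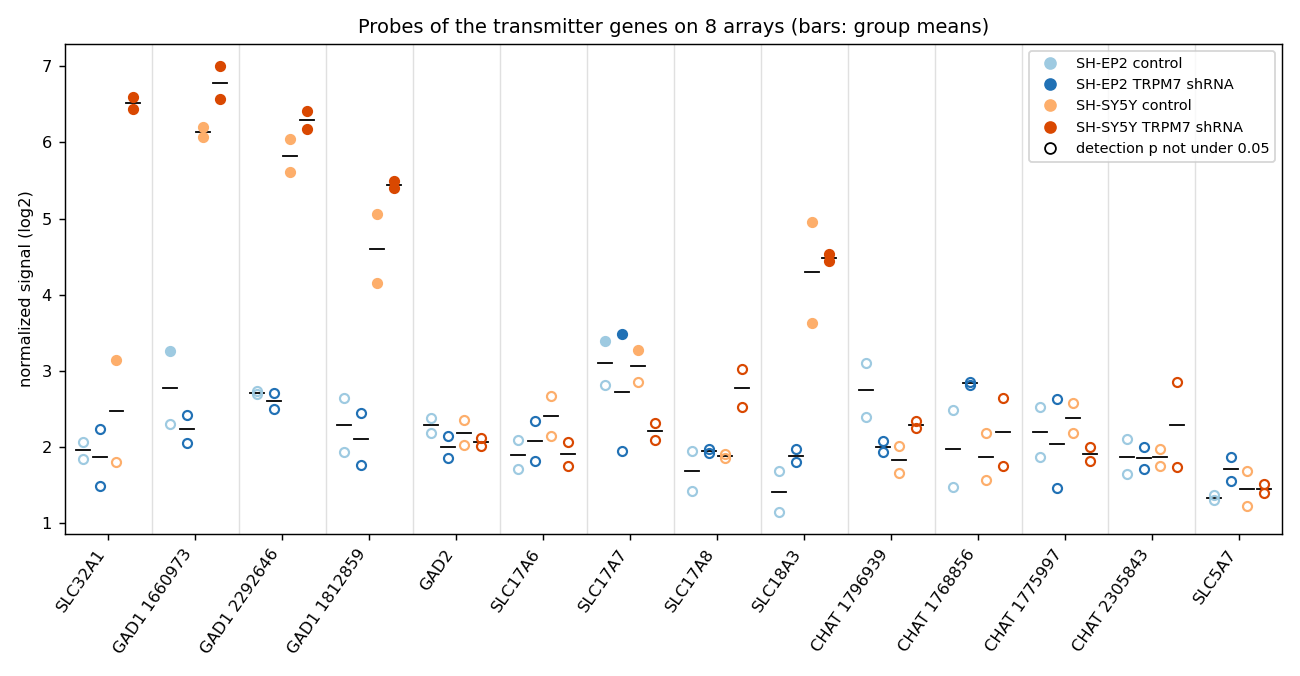
Normalized signal (log2) of each of the 14 probes on each of the 8 arrays, by group; filled points were detected, open points were not, and bars are group means. SLC32A1, GAD1 and SLC18A3 are detected in SH-SY5Y cells, and only SLC32A1 has a wide gap between control and TRPM7 shRNA arrays. Levels of different probes cannot be compared with each other.

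GAD1, the GABA-synthesizing decarboxylase GAD67, was already detected in SH-SY5Y control cells by all 3 of its probes, and was slightly brighter in TRPM7 shRNA cells without passing the test. The brightest probe (ILMN_1660973) had normalized signals of 6.20 and 6.07 in control and 7.00 and 6.57 in TRPM7 shRNA cells (log2). Its difference was 0.65 (95% confidence interval -0.11 to 1.40, limma adjusted p = 0.545). The second probe (ILMN_2292646) had signals of 5.61 and 6.04 in control and 6.18 and 6.41 in TRPM7 shRNA cells, and differed by 0.47 (-0.23 to 1.17, adjusted p = 0.672). In both, each TRPM7 shRNA array was above each control array. The third probe (ILMN_1812859) had signals of 4.15 and 5.06 in control and 5.49 and 5.40 in TRPM7 shRNA cells, and differed by 0.84 (-0.14 to 1.83, adjusted p = 0.547). The groups did not overlap here either. The 3 probes share the same RNA and are not replicates. Over all probes, 20.0% had both TRPM7 shRNA arrays above both control arrays in SH-SY5Y cells, and 24.7% of the 16944 probes detected on all 4 SH-SY5Y arrays did. The ratios of the mean deposited signals were 1.38, 1.28 and 1.28, beside 2.07 for SLC32A1. Without background correction the brightest probe passed the test (difference 0.29, adjusted p = 0.0393).

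GAD2, the decarboxylase GAD65 that is mostly tied to synaptic vesicles, was detected on none of the 8 arrays. Its detection p ranged from 0.256 to 0.668, and its normalized signals lay between 1.86 and 2.38 (log2). A synthesis gene of the GABA route was thus detected in SH-SY5Y cells with and without TRPM7 shRNA, and it was GAD1. In SH-EP2 cells GAD1 was detected by its brightest probe on 1 control array, and by no probe on the TRPM7 shRNA arrays.

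None of the glutamate transporters gave a steady signal. SLC17A6 (VGLUT2) was detected on no array, with normalized signals of 1.71 to 2.67 (log2). SLC17A7 (VGLUT1) was detected on 3 of 8 arrays, 1 in each group except SH-SY5Y TRPM7 shRNA cells. Its signals were 2.81 and 3.39 in SH-EP2 control, 1.95 and 3.49 in SH-EP2 TRPM7 shRNA, 3.27 and 2.86 in SH-SY5Y control, and 2.09 and 2.32 in SH-SY5Y TRPM7 shRNA cells. The SH-SY5Y groups did not overlap, but all values lay around the limit of detection and the difference did not pass the test (adjusted p = 0.605). In SH-EP2 cells the groups overlapped (adjusted p = 0.867). SLC17A8 (VGLUT3) was detected on no array. Its signals were 1.85 and 1.91 in SH-SY5Y control and 3.03 and 2.52 in SH-SY5Y TRPM7 shRNA cells. The lowest detection p of the probe, on the brighter of these arrays, was 0.0533. Its unadjusted p was 0.0175 and its adjusted p 0.276.

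Of the acetylcholine genes, the vesicular transporter was detected and the synthesis and choline uptake genes were not. SLC18A3 (VAChT, ILMN_2180171) was detected on all 4 SH-SY5Y arrays, with normalized signals of 4.96 and 3.63 in control and 4.44 and 4.53 in TRPM7 shRNA cells (log2). The control arrays lay on both sides of the TRPM7 shRNA arrays. The difference was 0.19 (95% confidence interval -0.89 to 1.27, adjusted p = 0.945), and without SH-SY5Y control replicate 2 it was -0.48. CHAT, in whose locus SLC18A3 lies, was detected by none of its 4 probes on any array, with signals of 1.46 to 3.10 and a lowest detection p of 0.0688. SLC5A7, the high-affinity choline transporter, was undetected as well, with detection p of 0.666 to 0.992. In SH-EP2 cells SLC18A3 was undetected on all 4 arrays.

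Counted by gene, with the brightest probe of each, 0 of the 8 genes other than SLC32A1 were higher and 0 lower in SH-SY5Y TRPM7 shRNA cells at an adjusted p under 0.05 (limma), and 1, SLC17A8, had an unadjusted p under 0.05. Over all probes, 0.807% were higher and 1.30% lower. In SH-EP2 cells 0 of 9 were higher and 0 lower, and 0 had an unadjusted p under 0.05, beside 1.48% of all probes higher and 1.54% lower. A per-probe test without eBayes called 0 in either line. Of all 47322 probes it called only 50 in SH-SY5Y and 103 in SH-EP2 cells, so that its 0 says little about these genes. The difference of the knockdown effects between the lines passed for 0 of 8 genes, beside 1.40% of all probes, and 2 had an unadjusted p under 0.05. These were GAD1, with a difference of 1.19 (95% confidence interval 0.13 to 2.26, adjusted p = 0.408), and CHAT, which was undetected. Part of the GAD1 difference came from SH-EP2 cells (-0.55), where the probe lay near background. The other GAD1 probes differed by 0.58 (-0.42 to 1.57) and 1.02 (-0.37 to 2.41), with intervals that include 0. Since 5 of the 9 genes were detected on no array, a change of theirs below the detection limit could not be seen.

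**Figure D2:**
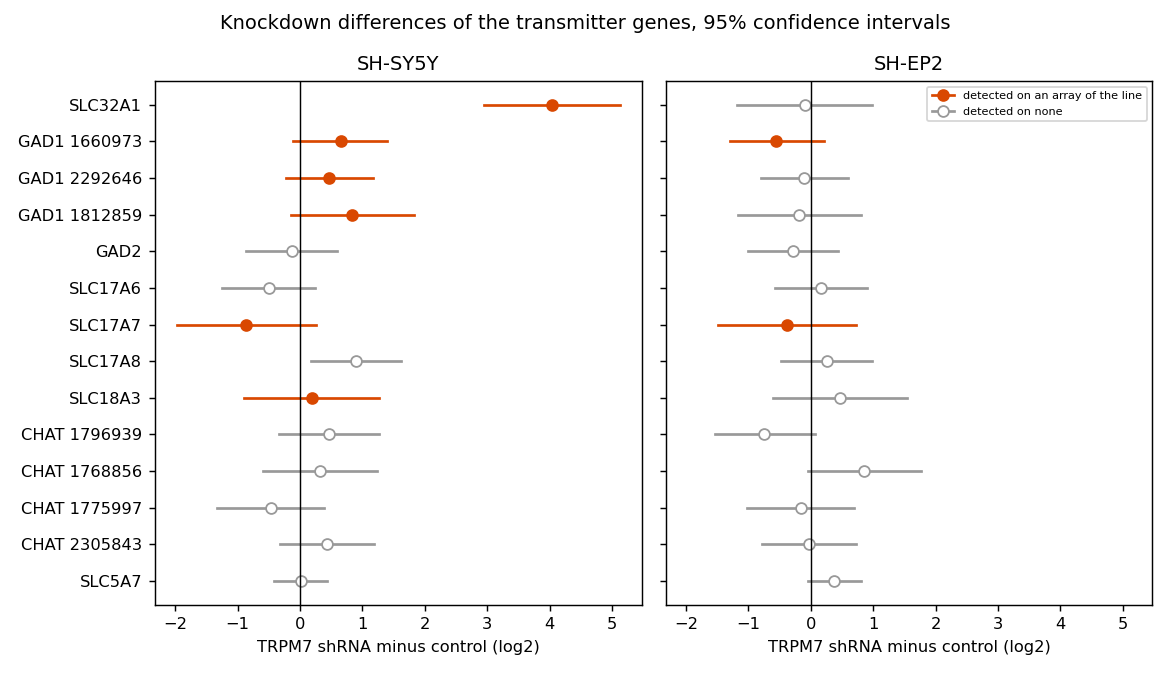
Difference between TRPM7 shRNA and control arrays (log2) of each probe in SH-SY5Y and SH-EP2 cells, with 95% confidence intervals from the limma fit; grey open points are probes undetected on every array of that line. SLC32A1, shown as a description because it was chosen by this difference, stands at 4.04 in SH-SY5Y cells, and the 3 GAD1 probes stand at 0.47 to 0.84 with intervals that include 0.

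GAD1 and SLC18A3 were higher in SH-SY5Y than in SH-EP2 control cells. At an adjusted p under 0.05, 2 of 9 genes differed between SH-SY5Y and SH-EP2 control cells, and 3 had an unadjusted p under 0.05. Over all probes, 26.2% differed, so the count of transmitter genes was near that of probes in general and says nothing about them as a group. GAD1 was higher by all 3 probes. The brightest differed by 3.36 on the log2 scale (10.3-fold, adjusted p = 2.43e-07), with 1 of 2 SH-EP2 control arrays detected. The other GAD1 probes were undetected in SH-EP2 control cells and had a bound in place of a fold. ILMN_2292646 was at least 6.03-fold higher in SH-SY5Y cells (adjusted p = 2.53e-07). ILMN_1812859 was at least 2.59-fold higher there (adjusted p = 5.78e-04). SLC18A3 was at least 2.09-fold higher (adjusted p = 1.58e-04). SLC32A1 overlapped between the control groups, with 3.14 and 1.80 in SH-SY5Y and 2.07 and 1.84 in SH-EP2 cells. SH-SY5Y control cells thus had a GABA synthesis signal with a transporter at the limit of detection, and a vesicular acetylcholine transporter signal with the enzyme below it.

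The genes around the transmitters were followed in lists made by function, with earlier results of these data known. On these same arrays the study had reported DLX5 as raised in SH-SY5Y TRPM7 shRNA cells. It had reported DBH, NEUROG2 and SNAI2 as lowered there, and SNAI2 as lowered in SH-EP2 TRPM7 shRNA cells as well. By quantitative RT-PCR it also found SNAI2 reduced in both lines. The SH-SY5Y calls of these genes and the SH-EP2 call of SNAI2 are therefore not independent of that report. Every knockdown call of a listed gene named below was lost with the per-probe test without eBayes, and all but those of DLX5 and SNAI2 in SH-SY5Y cells with eBayes without the intensity trend. In the list counts, a gene rose, fell or changed where its brightest probe had an adjusted p under 0.05 (limma). Of all probes, 0.807% were higher and 1.30% lower in SH-SY5Y TRPM7 shRNA cells, and 1.48% and 1.54% in SH-EP2 TRPM7 shRNA cells. Of 7 genes of GABA breakdown and uptake, 1 rose and 0 fell in SH-SY5Y TRPM7 shRNA cells, with a median difference of 0.15 beside 0.005 over all probes, and 0 changed in SH-EP2 cells (median 0.05 beside 0.006). The gene was ABAT, GABA transaminase, which degrades GABA. Its brightest probe had signals of 6.30 and 5.28 in control and 7.20 and 7.32 in TRPM7 shRNA cells (log2). The increase was 1.47 (SE 0.37, 2.78-fold, adjusted p = 0.0441), and a second probe rose by 1.76 (adjusted p = 0.0276), while the third was undetected. The call of the brightest probe was lost when replicate numbers entered as a block (adjusted p = 0.0671), with the mean over its probes (adjusted p = 0.219), and without any one of 3 SH-SY5Y arrays, control replicate 2 and both TRPM7 shRNA replicates, with an adjusted p of up to 0.446. ABAT was undetected in SH-EP2 cells, and its difference between the lines' effects did not pass (adjusted p = 0.321). The plasma membrane GABA transporters SLC6A11 and SLC6A13 were undetected in the control cells of both lines, whereas SLC6A12, of the same family, was detected on both control arrays of each line (mean signal 3.44 for SH-SY5Y and 6.36 for SH-EP2, log2).

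Glycine shares SLC32A1 with GABA. Of 7 genes of glycine transport and metabolism, 0 rose and 1 fell in SH-SY5Y TRPM7 shRNA cells (median -0.10), and 1 rose and 1 fell in SH-EP2 cells (median 0.24). SLC6A9, the plasma membrane glycine transporter GLYT1, fell in both lines by its brightest probe. Its signals were 4.05 and 4.57 in control and 2.88 and 3.48 in TRPM7 shRNA SH-SY5Y cells, and 7.06 and 7.03 against 5.87 and 5.73 in SH-EP2 cells. The decreases were 2.18-fold (adjusted p = 0.0458) and 2.37-fold (adjusted p = 0.0183). The SH-SY5Y call was lost under 9 of the processing alternatives that kept all arrays, and without any one array except SH-SY5Y control replicate 1 and TRPM7 shRNA replicate 2 (adjusted p of up to 0.337). The SH-EP2 call was lost without any one of the SH-EP2 arrays (adjusted p of up to 0.173), and the other SLC6A9 probes did not pass in either line. GLDC, glycine decarboxylase, which breaks glycine down, was undetected in SH-EP2 control cells and had signals of 4.30 and 3.97 in SH-EP2 TRPM7 shRNA cells, at least 1.87-fold higher (adjusted p = 0.00148). The neuronal glycine transporter SLC6A5 was undetected in control cells.

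Of 15 genes of glutamate supply and uptake, 0 changed in SH-SY5Y cells (median -0.14), and 1 rose and 2 fell in SH-EP2 TRPM7 shRNA cells (median -0.21). SLC38A1, an amino acid transporter that imports glutamine, had signals of 8.78 and 8.63 in SH-EP2 control and 7.71 and 7.85 in SH-EP2 TRPM7 shRNA cells, a 1.91-fold decrease (adjusted p = 6.74e-05). SLC1A1, the glutamate transporter EAAT3, was at 4.22 and 4.84 in control cells and undetected in TRPM7 shRNA cells, at least 2.56-fold lower (adjusted p = 0.0497). The call of SLC1A1 was lost without any one of the SH-EP2 arrays or of the SH-SY5Y TRPM7 shRNA arrays, with an adjusted p of up to 0.385.

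Of 12 genes of choline supply and acetylcholine breakdown, 1 rose and 1 fell in SH-SY5Y (median 0.01), and 1 rose and 2 fell in SH-EP2 TRPM7 shRNA cells (median 0.07). ACLY, ATP citrate lyase, makes cytosolic acetyl-CoA, which also feeds lipid synthesis. It fell 2.34-fold in SH-SY5Y cells, from 11.25 and 11.18 to 10.17 and 9.79 (adjusted p = 3.84e-07), and 1.74-fold in SH-EP2 cells (adjusted p = 7.63e-05). BCHE, butyrylcholinesterase, which hydrolyses choline esters, rose 1.91-fold in SH-SY5Y cells, from 7.01 and 6.94 to 7.85 and 7.97 (adjusted p = 1.45e-04), and 2.26-fold in SH-EP2 cells (adjusted p = 9.17e-06). The second probes of ACLY and BCHE passed in the same direction in both lines. SLC44A2, a choline transporter-like protein, fell 1.54-fold in SH-EP2 cells (adjusted p = 4.64e-04). ACHE, acetylcholinesterase, was undetected in control cells of both lines.

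The noradrenaline route, which sympathetic neuroblasts mostly use, was measured for comparison. Among 13 genes of monoamine synthesis and loading, 5 were detected on both SH-SY5Y control arrays and 0 on both SH-EP2 control arrays. TH, by its brightest probe, was undetected on all 8 arrays. Of the 13 genes, 0 rose and 1 fell in SH-SY5Y TRPM7 shRNA cells (median -0.21), and 0 passed in SH-EP2 cells. The gene was DBH, which turns dopamine into noradrenaline. It was at 12.53 and 12.71 in control and 11.43 and 11.42 in TRPM7 shRNA SH-SY5Y cells (adjusted p = 6.38e-04) and undetected in SH-EP2 cells. Of 18 genes of synaptic vesicle release, 0 changed in SH-SY5Y cells (median 0.08), although 12 were detected on both control arrays. In SH-EP2 cells 1 rose, STX1A, a membrane fusion protein of the release site, from 5.41 and 4.92 to 6.10 and 5.82 (1.73-fold, adjusted p = 0.0413). This call was lost under 8 of the alternatives that kept all arrays, and, with an adjusted p of up to 0.391, without any one of 4 arrays, SH-EP2 control replicate 2, both SH-EP2 TRPM7 shRNA replicates and SH-SY5Y TRPM7 shRNA replicate 1.

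**Figure D3:**
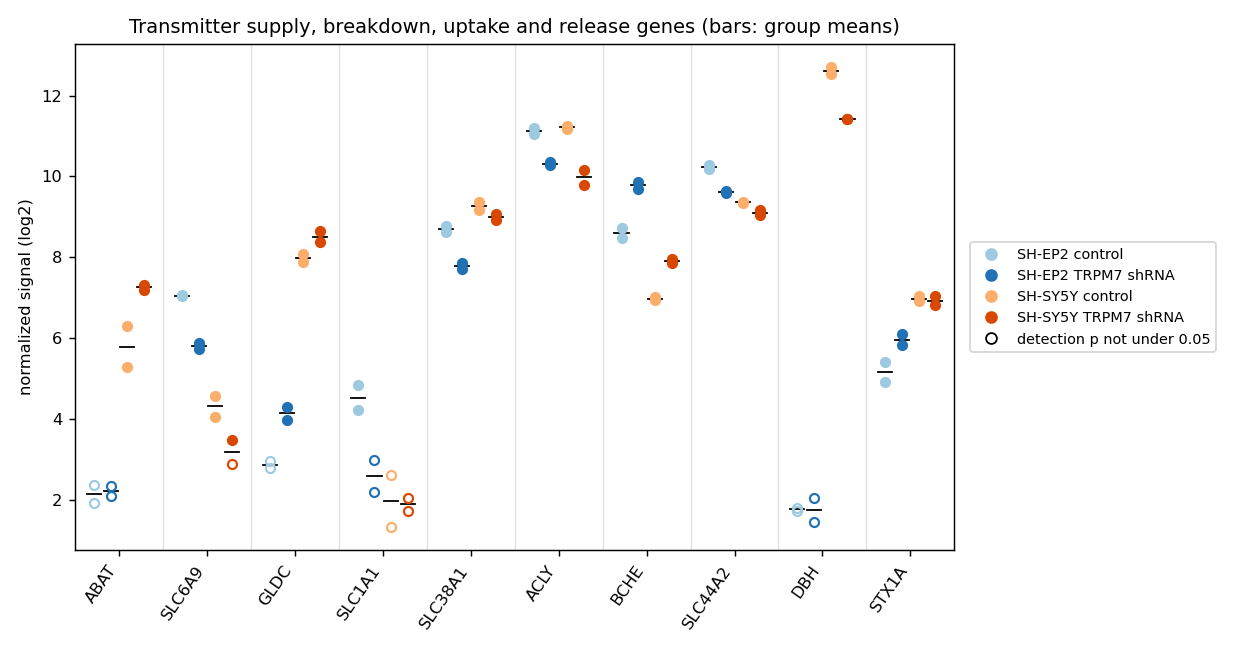
Normalized signal (log2) on each array of genes around the transmitters that passed in at least 1 line, by their brightest probe; open points were undetected and bars are group means. ACLY falls and BCHE rises in both lines, whereas ABAT separates the groups in SH-SY5Y cells and is undetected in SH-EP2 cells.

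Factors that set a neuron's transmitter moved in single genes. Of 12 GABAergic fate factors, 1 rose and 0 fell in SH-SY5Y TRPM7 shRNA cells (median 0.23), and 0 rose and 2 fell in SH-EP2 cells (median -0.10). Only 3 of the 12 were detected on both SH-SY5Y control arrays, so that the SH-SY5Y median rests mostly on genes near or below detection. DLX5, a homeobox factor of GABAergic forebrain neurons that also acts in bone and neural crest, had signals of 3.61 and 4.10 in control and 6.12 and 6.37 in TRPM7 shRNA SH-SY5Y cells, a difference of 2.39 (SE 0.29, adjusted p = 4.60e-05). In SH-EP2 cells it went the other way, from 5.44 and 5.33 to 4.08 and 3.80, a 2.73-fold decrease (adjusted p = 0.00642). The SH-EP2 call of DLX5 was lost without SH-EP2 control replicate 1 or 2 or TRPM7 shRNA replicate 2 (adjusted p of up to 0.0792), and its SH-SY5Y call held with each array left out. DLX1 and DLX6, related factors, were undetected in SH-SY5Y control cells, and so was DLX2. DLX6 was detected on 1 SH-SY5Y TRPM7 shRNA array (adjusted p = 0.631). In SH-EP2 cells DLX1 was detected on both arrays of each group. Its means there were 8.52 in control and 9.02 in TRPM7 shRNA cells (adjusted p = 0.392). GATA2, which directs both GABAergic and sympathetic neurons, fell 1.72-fold in SH-EP2 cells (adjusted p = 0.0171) and was at 10.13 and 10.01 against 9.93 and 9.72 in SH-SY5Y cells (adjusted p = 0.688). The GATA2 call was lost without SH-EP2 control replicate 1 or 2 or TRPM7 shRNA replicate 2, with an adjusted p of up to 0.314.

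Of 8 glutamatergic fate factors, 0 rose and 1 fell in SH-SY5Y cells (median -0.10), and 0 changed in SH-EP2 cells. The gene was NEUROG2, a proneural factor, at 11.25 and 10.95 in control and 9.47 and 9.45 in TRPM7 shRNA cells, a 3.11-fold decrease (adjusted p = 6.25e-07). Of 8 cholinergic fate factors, 1 rose and 1 fell in SH-SY5Y cells (median 0.47), and 0 changed in SH-EP2 cells, each gene being counted by its brightest probe. Only 2 of the 8 cholinergic and 2 of the 8 glutamatergic factors were detected on both SH-SY5Y control arrays. Their SH-SY5Y medians therefore rest mostly on genes near or below detection and do not show a shift of the list. LMO4, a cofactor of LIM-homeodomain factors, rose 1.63-fold, from 8.97 and 8.71 to 9.45 and 9.65 (adjusted p = 4.83e-04), and its second probe (ILMN_1703487) rose by 0.65 (adjusted p = 8.54e-04). In SH-EP2 cells that second probe fell by 0.41 (adjusted p = 0.0344), while the brightest differed by -0.21 without passing (adjusted p = 0.434). ISL1, a LIM-homeodomain factor of cholinergic and sympathetic neurons, fell 1.37-fold, from 12.67 and 12.69 to 12.29 and 12.16 (adjusted p = 0.0144), and its call was lost without any one of 3 SH-SY5Y arrays (adjusted p of up to 0.169), namely both control replicates and TRPM7 shRNA replicate 2.

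REST, which represses neuronal genes through RE1 elements, was at the limit of detection. Its signals were 2.57 and 3.09 in SH-SY5Y control and 3.19 and 2.86 in SH-SY5Y TRPM7 shRNA cells (adjusted p = 0.938), and 2.76 and 2.52 against 3.43 and 3.26 in SH-EP2 cells (adjusted p = 0.615). Of the 8 genes of its corepressor complex, REST included, 0 changed in SH-SY5Y cells (median 0.13) and 1 rose in SH-EP2 cells (median 0.22). This was RCOR2, a neuronal corepressor subunit, undetected in SH-EP2 control cells and at 4.46 and 5.17 in SH-EP2 TRPM7 shRNA cells, at least 3.0-fold higher (adjusted p = 3.18e-06). In SH-SY5Y cells RCOR2 was at 9.66 and 9.75 against 9.49 and 9.43 (adjusted p = 0.750).

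**Figure D4:**
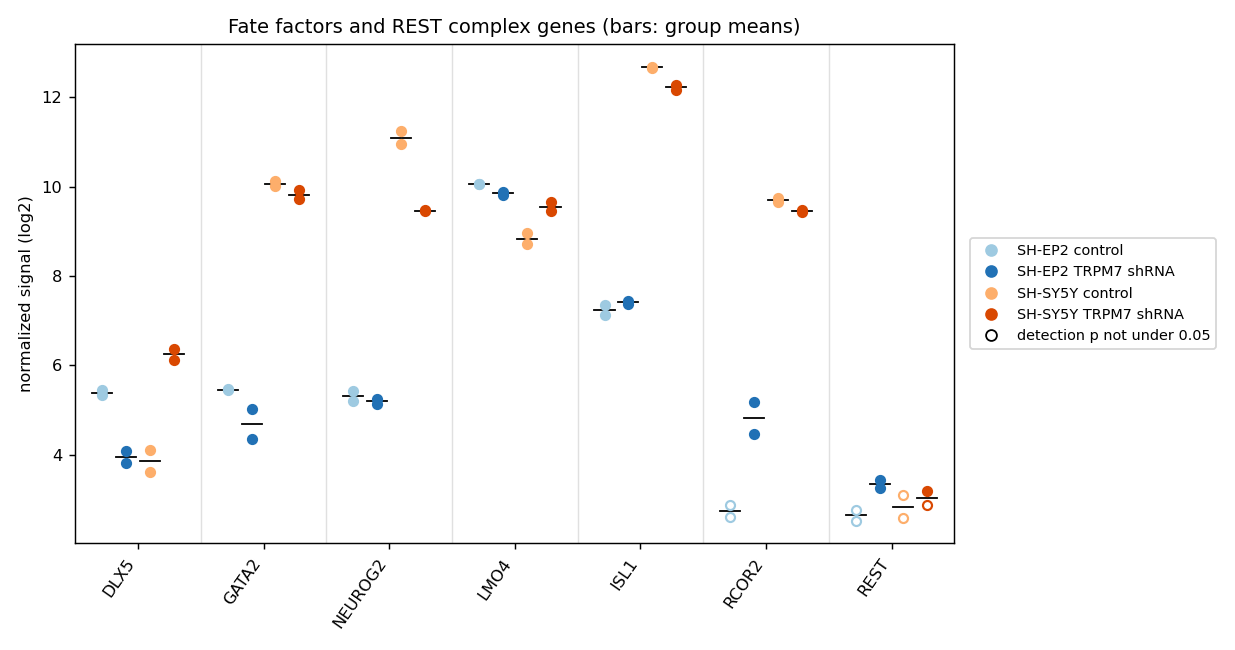
Normalized signal (log2) on each array of the fate factors that passed in at least 1 line, and of RCOR2 and REST, by their brightest probe; open points were undetected and bars are group means. DLX5 is higher in SH-SY5Y TRPM7 shRNA cells and lower in SH-EP2 TRPM7 shRNA cells than in their controls.

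The markers of the neuronal and mesenchymal state of these lines are given beside the transmitter genes. Of 8 noradrenergic markers, 0 rose and 3 fell in SH-SY5Y TRPM7 shRNA cells (median -0.47), and 0 passed in SH-EP2 cells. Of all probes, 0.807% rose and 1.30% fell in SH-SY5Y cells, and 1.48% rose and 1.54% fell in SH-EP2 cells. The 3 markers were DBH, ISL1 and STMN2, a tubulin-binding protein of growing neurites, which fell 1.5-fold (adjusted p = 0.0223). Of 8 mesenchymal markers, 0 rose and 2 fell in SH-SY5Y cells (median -0.04). SNAI2, a transcriptional repressor of the neural crest, fell in SH-SY5Y cells from 7.30 and 7.16 to 4.16 and 4.76, and VIM, an intermediate filament, fell 1.23-fold (adjusted p = 0.0177). In SH-EP2 cells 1 mesenchymal marker rose, CD44 (1.70-fold, adjusted p = 0.0207), and 3 fell, SNAI2 (2.63-fold, adjusted p = 6.68e-05), COL1A1 (1.48-fold, adjusted p = 0.00329) and THY1 (1.40-fold, adjusted p = 0.00290). A second CD44 probe, with means of 8.43 in control and 9.25 in TRPM7 shRNA SH-EP2 cells, did not pass (adjusted p = 0.140), and the third was undetected. The calls of STMN2 in SH-SY5Y and CD44 in SH-EP2 cells were lost without any one array of that line (adjusted p of up to 0.254 and 0.230). Those of VIM (without SH-SY5Y control or TRPM7 shRNA replicate 1), COL1A1 (without SH-EP2 control replicate 1 or 2 or TRPM7 shRNA replicate 2) and THY1 (without SH-EP2 control replicate 2 or TRPM7 shRNA replicate 1) were lost with adjusted p of up to 0.151, 0.107 and 0.0572. The part of these markers in the transmitter genes' values was not tested.

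Among 22455 probes with a gene symbol that were detected on at least 2 arrays, those whose pattern over the 8 arrays was most like that of SLC32A1 were C1orf108, KLHL14, C18orf34, SSR2 and RFC1, with Pearson's r of 0.984, 0.983, 0.983, 0.982 and 0.980. They are a description, since the 8 arrays form 4 groups and SLC32A1 stands high in 1 of them. KLHL14 had group means of 2.21 in control and 5.50 in TRPM7 shRNA SH-SY5Y cells, and C18orf34 of 2.98 and 6.45. RFC1, at 8.40 and 8.54, shared the pattern with a difference of only 0.14. The 3 GAD1 probes had an r of 0.72, 0.71 and 0.73, and SLC18A3 of 0.70. SLC17A8, which was never detected, had the highest r of the other transmitter genes, 0.88.

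The size of the SLC32A1 difference depended on how the background was removed. With neqc it was 2.24, with normexp 1.25, and without background correction 0.87 on the log2 scale. For the brightest GAD1 probe these were 0.52, 0.37 and 0.29. The direction of both was the same in each.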

How the data were processed

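The authors hybridized RNA to Illumina HumanHT-12 v4 bead arrays and extracted signals with GenomeStudio (version 2011.1, per the labels). They deposited linear, non-normalized signal intensities and a detection p-value for each of 47322 probes. Groups follow the line and the shRNA given in the labels.

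The RMA background model was applied to the intensities, which were then quantile normalized on the linear scale and turned into log2 values. Groups were compared with limma 3.58.1 in R 4.3.3 (statmod 1.5.0; a mean per group and eBayes with a trend on intensity). Tests were two-sided, and p-values were adjusted by Benjamini-Hochberg across the 47322 probes. A gene is given by its brightest probe where not said otherwise. Where a group was undetected, the fold is a bound against the lowest detected signal. The number of arrays limits the precision. The members and lists were chosen with earlier results of these data known. Named are all members, TRPM7, GAPDH, REST, in each list up to 4 genes per line that passed, and the 5 probes most like SLC32A1. Genes named as undetected or as a list's remaining member, and EOMES, were chosen after their values were seen. Most of the listed genes enter the counts and medians without being named singly, among them 2 that are not reported here. The procedure was tested on simulated data. Other settings tried were the background corrections neqc (offset 16), normexp (offset 50) and none, median scaling, a filter that kept probes detected on 2 or more arrays, eBayes without the trend, a per-probe test without eBayes, each line alone, the replicate number as a block, the mean over a gene's probes, leaving out each array and, added after results had been seen, a crossed block. Symbols are those of the file, and promoters come from RefSeq (GRCh38.p14). The file's own build is not given in the sources used here.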

Additional observations from a re-analysis of the deposited data

Results flagged for a closer look

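The knockdown effect differed between the cell lines for 9 of the 23 named list genes (limma's interaction term, adjusted over all probes), which were named because they passed the test in at least 1 line. Over all probes 1.40% differed. That count went from 662 to 15 probes with the per-probe test, where all 9 calls were lost, and to 23 with eBayes without the trend, where all but that of DLX5 were. Values are the SH-SY5Y minus the SH-EP2 effect on the log2 scale. DLX5 differed by 3.84 (SE 0.41, adjusted p = 1.73e-05), with all arrays of SH-SY5Y TRPM7 shRNA cells above and all of SH-EP2 TRPM7 shRNA cells below their controls. NEUROG2 differed by -1.51 (adjusted p = 2.02e-04) and LMO4 by 0.92 (adjusted p = 0.00167). RCOR2 differed by -2.33 (adjusted p = 1.00e-04), with a bound on its SH-EP2 side, where the control was undetected. DBH differed by -1.19 (adjusted p = 0.0216) and STMN2 by -0.85 (adjusted p = 0.0241), and both were undetected in SH-EP2 control cells. ISL1 differed by -0.63 (adjusted p = 0.0224), VIM by -0.42 (adjusted p = 0.0230) and SNAI2 by -1.38 (adjusted p = 0.00425). The SNAI2 difference was 0.12 without background correction, and its second probe differed by -1.13 without passing (adjusted p = 0.142). The calls of DBH, ISL1, STMN2 and VIM were each lost when any one of 5 or 6 arrays was left out, with adjusted p of up to 0.182, 0.128, 0.163 and 0.192, and that of SNAI2 without SH-EP2 control replicate 2 (adjusted p = 0.0514). No such difference passed for the 8 transmitter genes other than SLC32A1, whose own difference is given without a test because it was chosen by its effect.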

How the results depend on the processing

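The count of members called in SH-SY5Y cells went from 0 to 1, GAD1, without background correction, where the brightest GAD1 probe differed by 0.29 (adjusted p = 0.0393). Over all its alternatives GAD1's adjusted p ranged from 0.0393 to 0.878. The counts of 0 in SH-EP2 cells and for the difference between the lines, and of 2 between the control cells, were the same under every alternative that gave one. The SLC32A1 difference was 2.24 with neqc, 1.25 with normexp and 0.87 without background correction, and 3.38 to 4.69 with an array left out. GAD1 was 0.43 to 0.86 with an array left out, and the counts of members stayed at 0 to 0 and 2 to 2. SLC18A3 ranged from -0.48 (without SH-SY5Y control replicate 2) to 0.85, and the SNAI2 difference between the lines to 0.12 without background correction. The causes were not tested. Of 819 other values, 625 stayed on their side of the threshold, 192 lost their call and 2 reversed. eBayes without the trend lost 34 of 44 calls or values and the per-probe test 37. The deviations of same-numbered replicates correlated at -0.00447 in SH-EP2 cells and at -0.111 in SH-SY5Y cells. With 2 arrays per group these values cannot decide whether the arrays were paired, which is not stated. With the replicate block, 801 probes were called in SH-SY5Y cells in place of 999, and 1136 in place of 1429 in SH-EP2 cells, and GAD1 had an adjusted p of 0.553. With the crossed pairing these were 1420 and 1873. Where an array was left out, the spread of its group was taken from the remaining groups.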
